A study of Arabidopsis thaliana with 6 samples.

Results

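The genes described here are 10 genes by which guard cells open and close stomata and sense CO2, picked by locus: the anion channel genes SLAC1 and ALMT12, the potassium channel genes KAT1, KAT2 and GORK, the kinase genes OST1, HT1 and MPK12, the transporter gene RHC1 and the transcription factor gene MYB60. The table held 9 of them among 26402 genes, and MPK12 (AT2G46070), a MAP kinase gene of CO2 signalling, was not analysed here. RNA sequencing had been done on whole leaves of wild-type Arabidopsis thaliana, ecotype Columbia, with 3 samples from plants kept at 380 ppm CO2 (normal CO2) and 3 from plants kept at 100 ppm CO2 (low CO2) during growth. All plants were 4 weeks old and had 16 h of light and 8 h of dark at 21 °C and 70% relative humidity. The labels do not say whether the samples of a group came from separate plants or pools.

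Guard cells surround the stomatal pore and set its width by moving ions. Uptake of potassium through inward channels such as KAT1 and KAT2 swells the cells and opens the pore, while release of anions through SLAC1 and ALMT12 and of potassium through GORK shrinks them and closes it. High CO2 and the hormone abscisic acid close stomata, and low CO2 opens them: the kinase OST1 activates SLAC1, the kinase HT1 holds the closing response to CO2 back, and RHC1 and MPK12 act upstream on HT1.

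Values are RPKM (reads scaled to the coding length and to the sequencing depth), with 1 deposited value per CO2 level. Nothing says whether a column pools the 3 samples of its group or holds 1 library. The spread between samples is thus unknown, and the effect of CO2 could not be tested. Ratios are RPKM at low CO2 over RPKM at normal CO2, with a 95% interval that covers counting error only and compares these columns, not the conditions. The intervals rest on whole reads worked back from the RPKM values, at depths of 25429325 reads for the normal CO2 column against 21887516 for low CO2. In a whole leaf, fewer cells of a type and less RNA per cell cannot be told apart.

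The members differed in both directions. GORK, the outward potassium channel gene, was at least 2-fold higher at low CO2, ALMT12, the anion channel gene, at least 2-fold lower, and the other 7 stayed inside that bound. The 2-fold rule was set on log2(RPKM + 1), which understates the difference of low genes, and 6.07% of the 16563 genes counted (mean RPKM of 1 or more) passed it upward and 11.1% downward. The median log2 ratio of the 9 members was 0.07, against -0.06 for all genes counted. All 9 members in the table passed the filter on low values. The whole counting interval lay above 1 for 4 members (HT1, KAT2, GORK and MYB60), as for 31.9% of 16095 genes. It lay below 1 for 4 (SLAC1, OST1, ALMT12 and RHC1), as for 40.2%. The 16095 are counted genes with reads at a coding length listed in the reference. HT1 and OST1 are not among them.

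**Figure D1:**
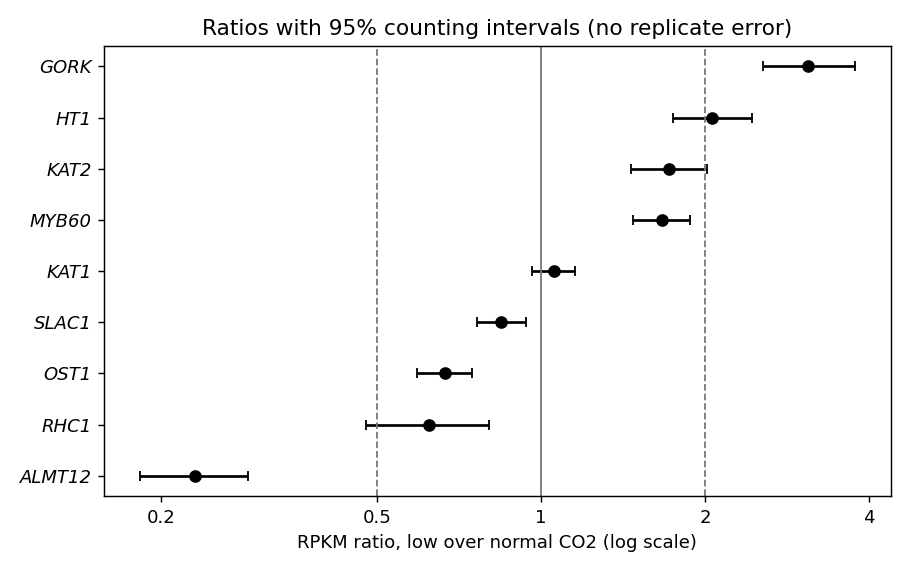
RPKM ratio of low over normal CO2 for the 9 members, on a log axis. Points are the ratios and bars the 95% counting intervals; dashed lines mark 2-fold either way. The intervals of GORK and ALMT12 lie wholly beyond 2-fold, and that of KAT1 spans 1.

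SLAC1 (AT1G12480, listed in RefSeq as OZS1), the slow anion channel through which closing guard cells lose chloride and nitrate, was at 20.9 RPKM at normal CO2 against 17.6 RPKM at low CO2. Behind these values stood 885 and 644 reads, and the ratio was 0.845 (0.763 to 0.937), a small difference that lay outside counting error. SLAC1 was the most abundant gene of its family in both columns. The RefSeq annotation lists 2 genes that overlap its locus. Of these AT1G12470 shares no coding base with SLAC1 and was at 13.4 and 16.9 RPKM, and since use of strand is not given in the sources used here, its part in the SLAC1 values was not tested.

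ALMT12 (AT4G17970), the rapid anion channel of guard cells, which releases malate, was at 10.9 RPKM at normal CO2 against 2.53 RPKM at low CO2. Its reads numbered 467 and 93, and it was 4.32-fold lower at low CO2 (3.45 to 5.46). It passed from 5th of the 9 members by RPKM at normal CO2 to 9th at low CO2, and 4.45% of all counted genes had a lower log2 ratio. It was beyond 2-fold under every other pseudocount, filter and scaling tried but one, scaling by the reads of the guard cell marker CYP86A2 (log2 ratio -0.64). The coding sequence of ALMT12 shares an identical run of 62 bases with AT5G46610, a gene of the same family that was listed at 0 in both columns. For the other 8 members the longest identical run with any other coding sequence was between 20 and 30 bases.

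The anion channel genes thus stood in another proportion in each column. The RPKM of SLAC1 was 1.91 times that of ALMT12 at normal CO2 against 6.97 times at low CO2. This ratio of 2 genes within a column does not depend on how the columns are scaled, and it was 3.65 times as large at low CO2 (2.85 to 4.72, exact conditional interval of the odds ratio of reads).

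**Figure D2:**
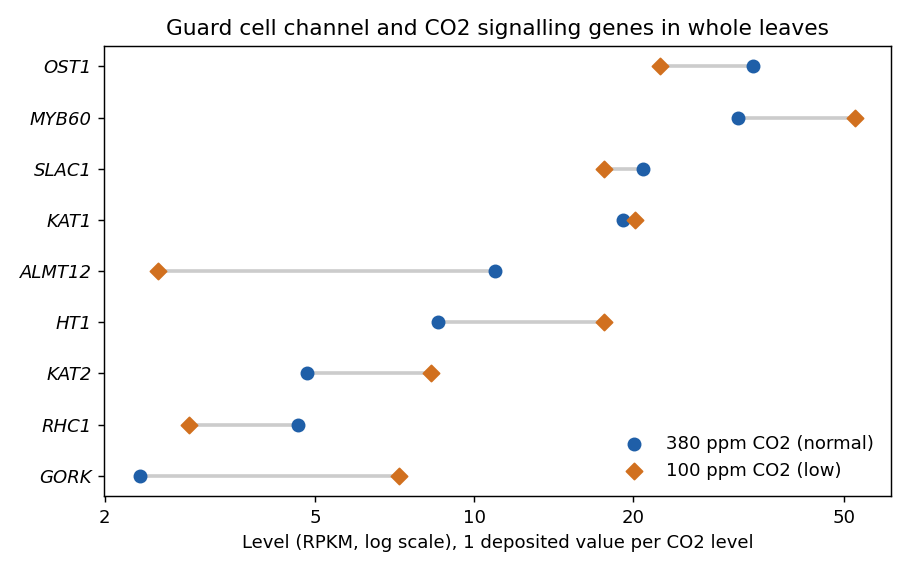
RPKM of the 9 members (log axis) in the deposited column for 380 ppm CO2 (circles) and 100 ppm CO2 (diamonds), ordered by the value at 380 ppm; there are no error bars because there is 1 value per CO2 level. ALMT12 goes from 10.9 to 2.53 RPKM and GORK from 2.33 to 7.22 RPKM, while KAT1 stays between 19.1 and 20.2 RPKM.

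KAT1 (AT5G46240), a voltage-gated channel that lets potassium into guard cells, was at 19.1 RPKM at normal CO2 against 20.2 RPKM at low CO2. With 988 and 897 reads its ratio was 1.05 (0.963 to 1.16), the only interval of the 9 that held 1. KAT2 (AT4G18290), a second inward channel that assembles with KAT1, was at 4.83 and 8.30 RPKM. Its 257 and 380 reads gave a ratio of 1.72 (1.46 to 2.02), so the KAT2 value was higher at low CO2 beyond counting error and its interval reached just past 2-fold. KAT1 remained the more abundant of the pair, at 3.96 times the RPKM of KAT2 at normal CO2 against 2.43 times at low CO2. Their coding sequences are 82.5% identical over the aligned bases, with a longest identical run of 30 bases.

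GORK (AT5G37500), the channel that lets potassium out of guard cells during closure, was the least abundant member at normal CO2, at 2.33 RPKM and 146 reads. At low CO2 it was at 7.22 RPKM and 389 reads, 3.10-fold higher (2.55 to 3.77). Of all counted genes 96.2% had a lower log2 ratio. A counting interval wholly beyond 2-fold upward was seen for 5.05% of the same 16095 genes and, downward (the case of ALMT12), for 9.52%. GORK lay within 2-fold with a pseudocount of 5 RPKM (log2 ratio 0.74) and was left out by a minimum mean of 5 RPKM.

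The balance of KAT1 and KAT2 transcripts against those of GORK differed between the columns. The other Shaker channel genes were left out of this comparison. The summed RPKM of KAT1 and KAT2 was 10.3 times that of GORK at normal CO2 against 3.94 times at low CO2. The reads of GORK relative to those of the pair were 2.60 times as high at low CO2 (2.11 to 3.21). Against KAT2 alone GORK was 1.80 times as high (1.40 to 2.33) and against KAT1 alone 2.93 times (2.37 to 3.65).

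OST1 (AT4G33950), the abscisic acid-activated kinase that phosphorylates SLAC1, was the most abundant member at normal CO2, at 33.7 RPKM, and was at 22.5 RPKM at low CO2. Its 808 and 463 reads made it 1.50-fold lower at low CO2 (1.34 to 1.69). HT1 (AT1G62400), a kinase named for the high leaf temperature of its mutant, was at 8.55 and 17.6 RPKM. With 225 and 399 reads its ratio was 2.06 (1.75 to 2.44), so the plain ratio lay just past 2-fold and the log2(RPKM + 1) ratio, 0.96, just within it. HT1 passed 2-fold with a pseudocount of 0.1 RPKM (1.03), after scaling the median ratio of all genes to 1 (1.02) and after quantile normalization (1.07).

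The 2 kinase genes therefore stood closer together at low CO2. OST1 had 3.95 times the RPKM of HT1 at normal CO2 against 1.27 times at low CO2, and the reads of HT1 relative to those of OST1 were 3.09 times as high at low CO2 (2.52 to 3.80). For HT1 the reads were found at a coding length of 1035 bases and for OST1 at 942 bases, lengths that the reference does not list for them (1170 and 1086 without the stop codon). HT1 also gave whole reads at 345, 690 and 1380 bases. At these lengths its interval was 1.54 to 2.77 at the widest and 1.79 to 2.38 at the narrowest.

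RHC1 (AT4G22790, listed in RefSeq as a MATE efflux family protein), which has been placed upstream of HT1, was at 4.65 RPKM at normal CO2 against 2.88 RPKM at low CO2. Its 174 and 93 reads made it 1.61-fold lower (1.24 to 2.09), an interval that holds 2-fold. RHC1 and HT1 went in opposite directions, and HT1 had 1.84 times the RPKM of RHC1 at normal CO2 against 6.11 times at low CO2. MYB60 (AT1G08810), a guard cell transcription factor that promotes stomatal opening, was at 31.5 and 52.5 RPKM, the highest member at low CO2. From 474 and 679 reads its ratio was 1.66 (1.48 to 1.88), above that of most genes, since 89.6% of all counted genes had a lower log2 ratio. The MYB60 reads were found at a coding length of 591 bases, shorter than its longest listed isoform (843 bases with the stop codon). The same held for GORK (2460 bases, longest 2529 with the stop codon) and KAT2 (2091 bases, longest 2127 with the stop codon).

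**Figure D3:**
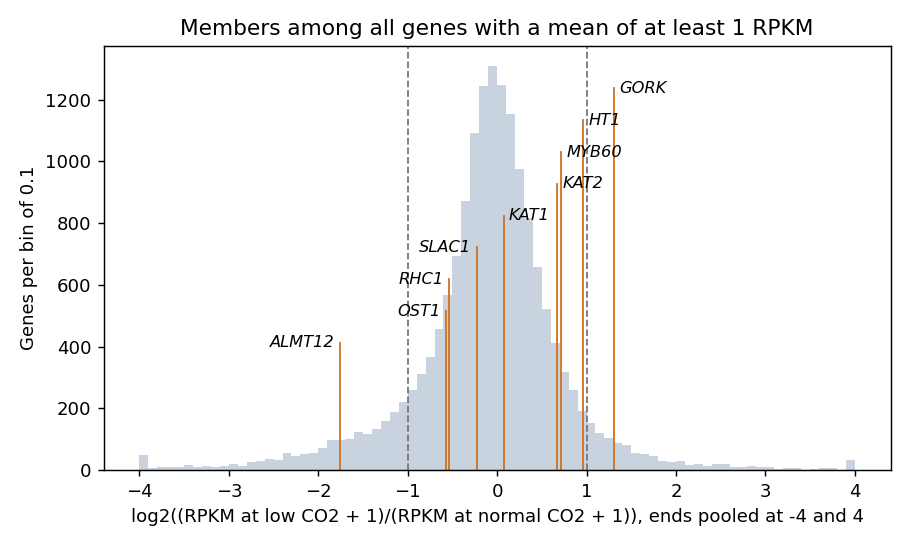
Histogram of the log2 ratio of RPKM + 1 for the 16563 genes counted, in bins of 0.1 with values beyond the axis pooled at its ends. Orange lines of staggered height mark the 9 members and dashed lines 2-fold: GORK (1.30) and ALMT12 (-1.76) lie outside, and HT1 (0.96) just inside.

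By role, the genes for closing did not go one way. Of those that carry or activate ion release, SLAC1, ALMT12 and OST1 were lower at low CO2 and GORK was higher. Of the genes that serve opening or hold closure back, HT1, KAT2 and MYB60 were higher and KAT1 differed by less than counting error. RHC1, which has been placed upstream of HT1 and was put in neither group, was lower. These directions are those of the RPKM as deposited. The ratios ran from 0.231 for ALMT12 to 3.10 for GORK, and whether any of them exceeds the spread between plants could not be tested.

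The labelled tissue was checked against markers of the cell types in a leaf. Of 7 guard cell markers 2 passed the 2-fold rule upward and 1 downward, 3 lay within 2-fold, and MYB61, a guard cell transcription factor gene, was listed at 0 in both columns. The 7 markers summed to 494.5 RPKM at normal CO2 against 1356 RPKM at low CO2, most of it from TGG1, a myrosinase gene at 265 and 1097 RPKM whose similar copy TGG2 can share its reads. AT1G22690, listed as a gibberellin-regulated family gene, was 2.17-fold higher (1.98 to 2.38) and CYP86A2, a cytochrome P450 gene of cutin synthesis, 2.63-fold lower (2.48 to 2.80). The transcription factor genes that specify and mature guard cells differed little: FAMA (23.6 and 26.0 RPKM) had a ratio of 1.10 (0.991 to 1.22), and SCAP1 (10.4 and 11.9 RPKM) one of 1.15 (0.959 to 1.37). BLUS1, a kinase gene of blue light-driven opening, was within 2-fold as well but lower beyond counting error, at 11.1 and 7.51 RPKM and a ratio of 0.678 (0.576 to 0.797).

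Each member was therefore also set against each of the 6 counted guard cell markers in turn, a comparison of reads within each column that was added after the values had been seen. The reads came from whole leaves, and which cells gave the reads of a member or a marker was not tested. The ratios to a marker are thus not levels per guard cell. ALMT12 was lower at low CO2 against all 6, by 1.64-fold (against CYP86A2) to 17.9-fold (against TGG1). GORK was higher against 5, from 1.43-fold (1.15 to 1.77, against AT1G22690) to 8.15-fold (against CYP86A2), and 1.34-fold lower against TGG1. HT1 was higher against 4 markers, KAT2 against 4 and MYB60 against 4, but none of these genes was higher against TGG1 or AT1G22690. For the other members the direction also turned with the marker. SLAC1 was lower against 4 markers and higher against BLUS1, at 1.25 (1.03 to 1.51), and against CYP86A2. OST1 and RHC1 were each lower against 4 markers and higher against CYP86A2, and against BLUS1 their ratios were 0.981 (0.803 to 1.20) and 0.915 (0.671 to 1.24). KAT1 was higher against 2 and lower against 2, and its interval held 1 against FAMA, at 0.959 (0.835 to 1.10), and against SCAP1.

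**Figure D4:**
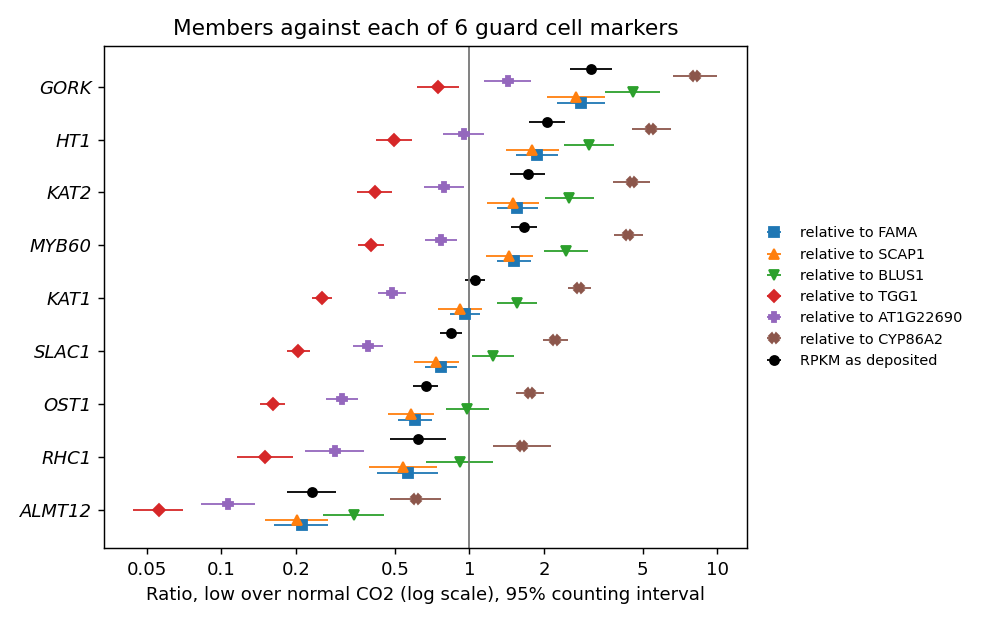
Ratio of low over normal CO2 for each member (log axis), from RPKM as deposited (circles) and from its reads relative to the reads of each of 6 guard cell markers in the same column (other symbols); bars are 95% counting intervals. All points of ALMT12 lie below 1, and those of every other member lie on both sides of 1.

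Markers of the other cell types also differed in both directions, and their part in the member ratios was not tested. Of 5 epidermis markers 1, PDF1, was at least 2-fold higher (1.03 and 3.63 RPKM, 24 and 73 reads) and 4 lay within 2-fold. They summed to 760 and 507 RPKM, a lower sum that came mostly from the wax synthesis gene CUT1 (620 and 328 RPKM): PDF2 and FDH had ratios of 1.12 and 1.41, ATML1 one of 0.832, and the median log2 ratio of the 5 was 0.15. Of 3 mesophyll markers 1, the Rubisco gene RBCS1A, was at least 2-fold higher, and they summed to 18240 and 33373 RPKM, while CAB3 and RCA had ratios of 0.967 and 1.10. All 5 vascular markers lay within 2-fold, with 679 and 595 RPKM in all. The phloem sucrose transporter gene SUC2, the most abundant of them, had a ratio of 0.851 (0.831 to 0.870).

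The families of the channels were described next, to show which other genes of each kind a leaf held. Of the 9 Shaker potassium channel genes 6 were counted, of which 1 (GORK) was at least 2-fold higher, 1 was at least 2-fold lower and 4 stayed within 2-fold. The lower gene was AKT2, a weakly rectifying channel of the phloem, at 17.2 and 6.91 RPKM and 2.48-fold lower (2.20 to 2.80). KAT1 held 33.3% of the family's summed RPKM at normal CO2 against 36.3% at low CO2, and GORK 4.06% and 13.0%. The whole family summed to nearly the same level in both columns, 57.4 and 55.5 RPKM. SKOR, an outward channel known from the root stele and named after its values were seen, had only 9 and 28 reads.

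Of the 5 genes of the SLAC1 family 3 were counted, with 1 at least 2-fold higher and 2 within 2-fold. SLAH2, a nitrate-selective channel gene known from roots, was at 0.278 RPKM and 11 reads at normal CO2 but at 8.54 RPKM and 291 reads at low CO2. This was 30.7-fold higher (16.9 to 62.3), a wide interval that reflects the few reads at normal CO2. SLAH2 passed the minimum mean of 1 RPKM only through its value at low CO2. SLAC1 had 75.1 times the RPKM of SLAH2 at normal CO2 against 2.07 times at low CO2, and its share of the family's summed RPKM was 66.2% and 52.4%. SLAH3, an anion channel that guard cells also use, was at 10.1 and 6.62 RPKM and 1.53-fold lower (1.32 to 1.78), a gene named after its values were seen, and SLAH1 was listed at 0 in both columns. The coding sequences of SLAC1 and SLAH2 are 65.7% identical over the aligned bases, with 24 bases as the longest identical run.

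Of the 5 ALMT genes listed, 4 were counted, and ALMT12 alone of them reached 2-fold. Its share of the summed RPKM of the 5 was 22.3% at normal CO2 against 7.68% at low CO2. The vacuolar malate channel gene ALMT9, named after its values were seen, was at 7.78 and 13.98 RPKM, with a ratio of 1.80 (1.57 to 2.06). The most abundant gene of the list was AT1G25480, at 28.3 and 15.2 RPKM, 1.86-fold lower (1.68 to 2.06).

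**Figure D5:**
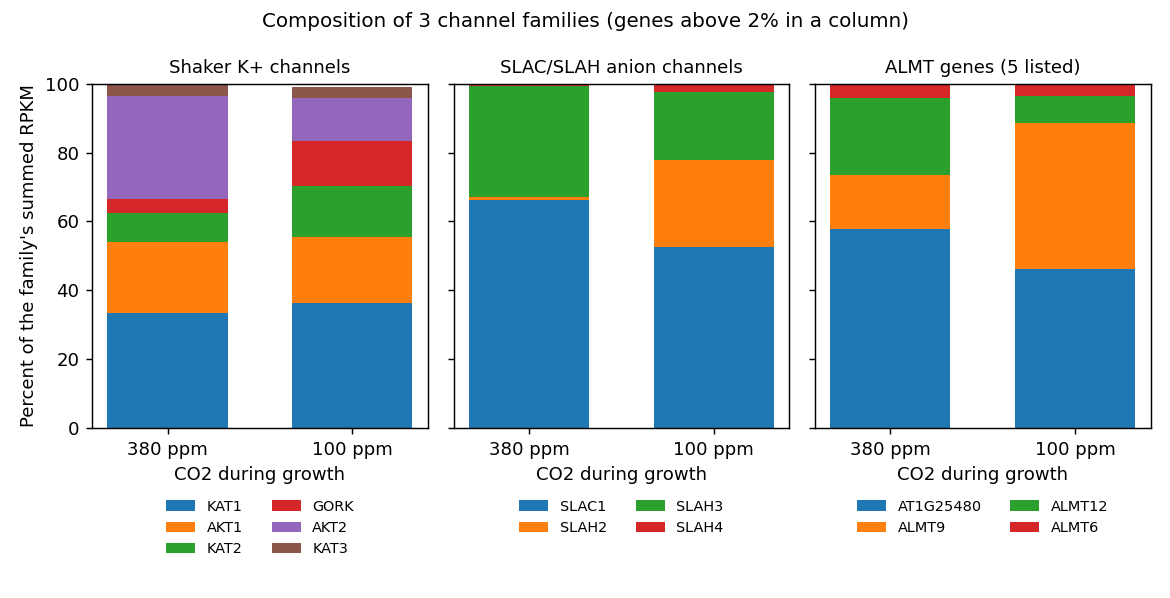
Share of the family's summed RPKM (percent, bars from 0) held by each gene above 2% in a column, for the Shaker potassium channels, the SLAC1 family and 5 ALMT genes, at 380 and 100 ppm CO2. SLAH2 goes from 0.881% to 25.4%, GORK from 4.06% to 13.0%, and ALMT12 from 22.3% to 7.68%.

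OST1 was 7th of 10 SnRK2 kinase genes by RPKM in both columns. None of the 8 counted genes of that list reached 2-fold either way. SNRK2.2, a kinase of abscisic acid signalling and the most abundant by mean level, stood at 97.6 and 138 RPKM. It was the one counted gene with a ratio above 1, at 1.41 (1.34 to 1.48). OST1 had 0.346 times the RPKM of SNRK2.2 at normal CO2 against 0.163 times at low CO2. The other counted genes of the list had ratios between 0.595 and 0.874, OST1 among them at 0.666. Among 5 related MYB genes MYB30 was 2.45-fold higher (2.10 to 2.87), MYB31 3.00-fold lower (2.56 to 3.52), and 3 lay within 2-fold, MYB60 among them. MYB60 had 1.12 times the RPKM of MYB31 at normal CO2 against 5.58 times at low CO2. Beside MYB30 the proportion went the other way, with MYB60 at 3.24 times its RPKM at normal CO2 against 2.20 times at low CO2.

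Of 7 genes that work with the members in CO2 signalling 6 were counted, 1 was at least 2-fold higher and 5 lay within 2-fold, as did 82.9% of all counted genes. The higher one was CA1, a carbonic anhydrase that turns CO2 into bicarbonate, at 264 and 2272 RPKM. Across 16095 genes 31.9% had a ratio above 1 beyond counting error. Of the other 5 signalling genes counted, which are named after their values were seen, 4 did. These were the carbonic anhydrase gene CA4 at 1.88 (1.79 to 1.97), the kinase genes CBC2 at 1.63 (1.50 to 1.77) and CBC1 at 1.18 (1.05 to 1.32), and PATROL1, which moves a proton pump to the plasma membrane, at 1.44 (1.34 to 1.55). The MAP kinase gene MPK4, which acts beside MPK12, was at 46.7 and 48.2 RPKM, with a ratio of 1.03 (0.954 to 1.12). The median log2 ratio of the 6 was 0.59, against -0.06 for all genes counted. These are levels of the whole leaf, that of CA1 included, and the share of guard cells in them was not tested. Of 6 MAP kinase genes 4 were in the table and MPK3 and MPK12 were not analysed here. MPK9, which acts in guard cells, was 2.52-fold higher (2.21 to 2.87), MPK11 (48.1 and 7.20 RPKM) was 6.68-fold lower (5.56 to 8.08), and the other 2 lay within 2-fold.

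Of 6 calcium-dependent kinase and NADPH oxidase genes 1 was at least 2-fold lower and 5 lay within 2-fold. The lower gene was RBOHD, an oxidase of stress and guard cell signalling, at 123 and 40.2 RPKM, 3.05-fold lower (2.91 to 3.19). Of 7 genes of the opening machinery 1 was at least 2-fold higher, 1 was at least 2-fold lower and 5 stayed within 2-fold. AHA2, a plasma membrane proton pump, was 2.33-fold higher (2.25 to 2.41). The blue light receptor gene PHOT1 was 2.03-fold lower (1.97 to 2.10), but within 2-fold after median scaling, after quantile normalization and with a pseudocount of 5 RPKM. Of 4 vacuolar channel and transporter genes 1 was at least 2-fold higher and 3 lay within 2-fold: CLC-A, which loads nitrate into the vacuole, was at 8.85 and 94.3 RPKM, 10.7-fold higher (9.74 to 11.7).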

How the data were processed

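Whole leaves were sequenced in 6 samples, 3 per CO2 level. The authors deposited RPKM values in 1 column per CO2 level, and the columns name no sample, so each stood for its CO2 level as a single value without an SD. Per the submitters' processing notes FastQC, TopHat and Cufflinks were used. Genome build, annotation, strand use and pooling are not given in the sources used here.

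A value equals reads / (depth × length), so depths were searched until the coding lengths of RefSeq TAIR10.1 isoforms, less the 3 bases of the stop codon, gave whole reads. Of 21010 genes above 0, 20247 (96.4%) were whole in both columns to within 0.0001 of a read. For OST1 and HT1 the multiple of 3 nearest to the reference length that gave whole reads was taken. Of the loci 25802 matched the reference, which was used for names, lengths and coding sequences, and no coordinates are printed. At these depths 1 read on 1 kb is worth 0.0393 RPKM at normal and 0.0457 RPKM at low CO2. Intervals are exact Clopper-Pearson (95%), or exact conditional for gene pairs, in SciPy 1.17.1 under Python 3.11.15, with Biopython 1.88 for alignment. A pseudocount of 1 RPKM and a minimum mean of 1 RPKM were used. The recovery and intervals were tested on simulated reads with counting error only and a known length for each gene. That test did not cover the choice of a coding length or the spread between samples.

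The members and the 14 lists (84 entries) were chosen with earlier results of these data known. Named are all members and, of each list, up to 3 other genes past 2-fold, or else the most abundant. Any other gene of a list (such as FAMA, SCAP1, BLUS1, MYB61, CUT1, SLAH1, SLAH3, SKOR, ALMT9 and MPK4) was named after its values were seen. No list was tested. The alternatives tried were other pseudocounts, filters and scalings.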

Additional observations from a re-analysis of the deposited data

How the results depend on the processing

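The count of members at least 2-fold higher at low CO2 was 1 as reported (GORK). It was 2 (GORK and HT1) with a pseudocount of 0.1 RPKM, with the median ratio scaled to 1 and after quantile normalization, and 0 with a pseudocount of 5 RPKM and with a minimum mean of 5 RPKM, which leaves GORK out. The count at least 2-fold lower was 1 (ALMT12) under these alternatives. The median log2 ratio of the members was 0.07 as reported and between 0.06 and 0.17 under them. Quantile normalization moved the median over all genes counted from -0.06 to 0.05 (log2). Scalings by guard cell marker reads were chosen after seeing the data, and their outcome turned on the marker. By FAMA and SCAP1 together, by FAMA or by SCAP1, both counts stayed at 1 and the members' median was -0.072, -0.057 or -0.12, beside -0.19, -0.18 or -0.24 over all genes. By BLUS1 reads 4 members were higher and 1 lower, with a median of 0.61 (all genes 0.46). By TGG1 reads 0 were higher and 6 lower, with a median of -1.73 (all genes -1.83), and GORK turned to -0.28. By AT1G22690 reads 0 were higher and 4 lower, with a median of -0.97 (all genes -1.05). By CYP86A2 reads 6 were higher and 0 lower, with a median of 1.43 (all genes 1.24). Of 36 values for single members under other pseudocounts, median scaling and quantile normalization 32 moved by less than counting error. The 4 that moved further include both genes past 2-fold. They were GORK with a pseudocount of 0.1 RPKM (log2 ratio 1.59) and of 5 RPKM (0.74), and ALMT12 (-1.08) and KAT2 (0.44) with 5 RPKM. Of the other genes named, AKT2, MYB30 and PDF1 lay within 2-fold with a pseudocount of 5 RPKM and RBCS1A after quantile normalization, and SLAH2 and PDF1 were left out by a minimum mean of 5 RPKM. No paired analysis was possible because the table holds 1 column per CO2 level, and for the same reason no replicate could be left out.

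The unknown spread between samples limits every ratio, and ALMT12 and RHC1 rest on 93 reads each at low CO2.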
